A study of Saccharomyces cerevisiae with 6 samples.

Results

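The genes described here encode the proteins that copy yeast DNA and make its building blocks, chosen by name as 43 genes of 6416 rows in the deposited table. They cover 10 functional units, from the origin recognition complex (ORC) through the replicative helicase and polymerases to ribonucleotide reductase (RNR). All 43 were found, and all 43 passed the filter on low values. RNA was sequenced from cultures of Saccharomyces cerevisiae BY4741, a laboratory strain of mating type a, in synthetic complete medium whose only carbon source was galactose. The DS/AA group (3 libraries, replicates 1 to 3) expressed NdeltaCit1-DS/AA, and the DS/AA-H/G group (3 libraries, replicates 4 to 6) expressed NdeltaCit1-DS/AA-H/G. By the title of the series, both are forms of the citrate synthase Cit1 that lack the presequence, the leader that sends it into mitochondria, and the question was what their accumulation does to the cell. The labels give neither the substitutions, nor the promoter or vector behind the expression, nor whether the 3 libraries of a group are separate cultures. The p-values therefore reflect only how these libraries vary, which may be technical.

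In every cell cycle, ORC marks replication origins and loads the ring-shaped MCM helicase, which CDC45 and the GINS complex then turn into a moving fork. DNA polymerase alpha with primase lays down primers, polymerase epsilon extends the leading strand and polymerase delta the lagging strand, held on DNA by the sliding clamp PCNA that replication factor C (RFC) loads. RNR reduces ribonucleotides to deoxyribonucleotides and sets the supply for the fork. In budding yeast many of these genes are transcribed around the start of S phase through MBF, a transcription factor that binds the MluI cell cycle box (MCB).

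Each library held 30277564 to 32702577 estimated reads, and the lowest value of a member in any library corresponded to 456 reads. Values are scaled counts, that is, estimated read counts divided by 1 factor per library. The row counted as CIT1 was itself lower in DS/AA, at 522165 ± 23866 scaled counts against 1205730 ± 11966 in DS/AA-H/G (mean ± SD, n = 3 each), so the form expressed and the amount of its transcript cannot be told apart as sources of any difference below. Mating type a genes were present in both strains and moved between them, where 19.7% of all tested genes fell and 22.1% rose. Of 6 mating type a markers 4 fell by the limma test described below (list median -0.67): the pheromone receptor gene STE2 averaged 11210 ± 408 scaled counts in DS/AA, against 17212 ± 229 in DS/AA-H/G (-0.62), the protease gene BAR1 and the pheromone exporter gene STE6 changed by -0.71 and -0.32, and the agglutinin gene AGA2 changed by -0.36, a call that 7 of 14 alternatives ended. The a-factor genes MFA1 and MFA2 stood at 0.940 to 16.3 in each library and did not pass. Their changes of -0.97 and -0.96 enter the list median, which was -0.57 with a pseudocount of 5. Their coding lengths are 111 and 117 nt, and whether such short transcripts were lost in preparation was not tested. Of 4 mating type alpha markers 2 rose (list median 0.31), the agglutinin gene SAG1 at 1543 ± 28.9 in DS/AA, against 1295 ± 72.8 in DS/AA-H/G (0.25, limma adjusted p = 0.00185), and the receptor gene STE3, at 451 to 525 in DS/AA, against 375 to 402 in DS/AA-H/G (0.31, adjusted p = 0.00916, but 0.583 under quantile normalization; it overlaps YKL177W on the opposite strand by 272 nt). The alpha-factor genes MF(ALPHA)1 and MF(ALPHA)2 stood at 46.0 to 76.5 and 0 to 2.01 and did not pass. Both enter the alpha list median, which was 0.12 under quantile normalization. The a markers summed to 27151 to 29129 in DS/AA, against 39850 to 41768 in DS/AA-H/G, and the alpha markers to 2019 to 2170 in DS/AA, against 1681 to 1806 in DS/AA-H/G; their part in the results below was not tested.

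Most replication genes differed little between the strains, and RNR was divided. Of the 43 genes, 11 fell in DS/AA, 2 rose in DS/AA and 30 did not pass the test. The largest falls were POL30, which encodes PCNA, at 0.786-fold, and DPB2, a polymerase epsilon subunit, at 0.798-fold. RNR1, the main large subunit of RNR, was 0.852-fold, while the small subunit genes RNR2 and RNR4 were higher at 1.10-fold and 1.14-fold. The test was limma on log2(scaled count + 1) over 6197 genes, with Benjamini-Hochberg adjusted p under 0.05 as the call, and every change below is on that scale, with DS/AA-H/G subtracted from DS/AA. The share of members called (30.2%) was below the 41.8% of all tested genes called, and the 11 that fell stand against 19.7% of all tested genes that fell and the 2 that rose against 22.1%. The median change of the 43 genes was -0.08, and that of all tested genes was 0.01. The groups did not overlap in 22 members (51.2%), against 52.7% of all tested genes. In 18 of the 22, which are 18 of all 43 members, DS/AA was lower, an order that 25% of all tested genes had. Counted only among the tested genes without overlap, DS/AA was lower in 1547 of 3268. POL30 and DPB2 were the only 2 called members with a change of at least 0.3 in size, which 16.5% of all tested genes had.

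**Figure D1:**
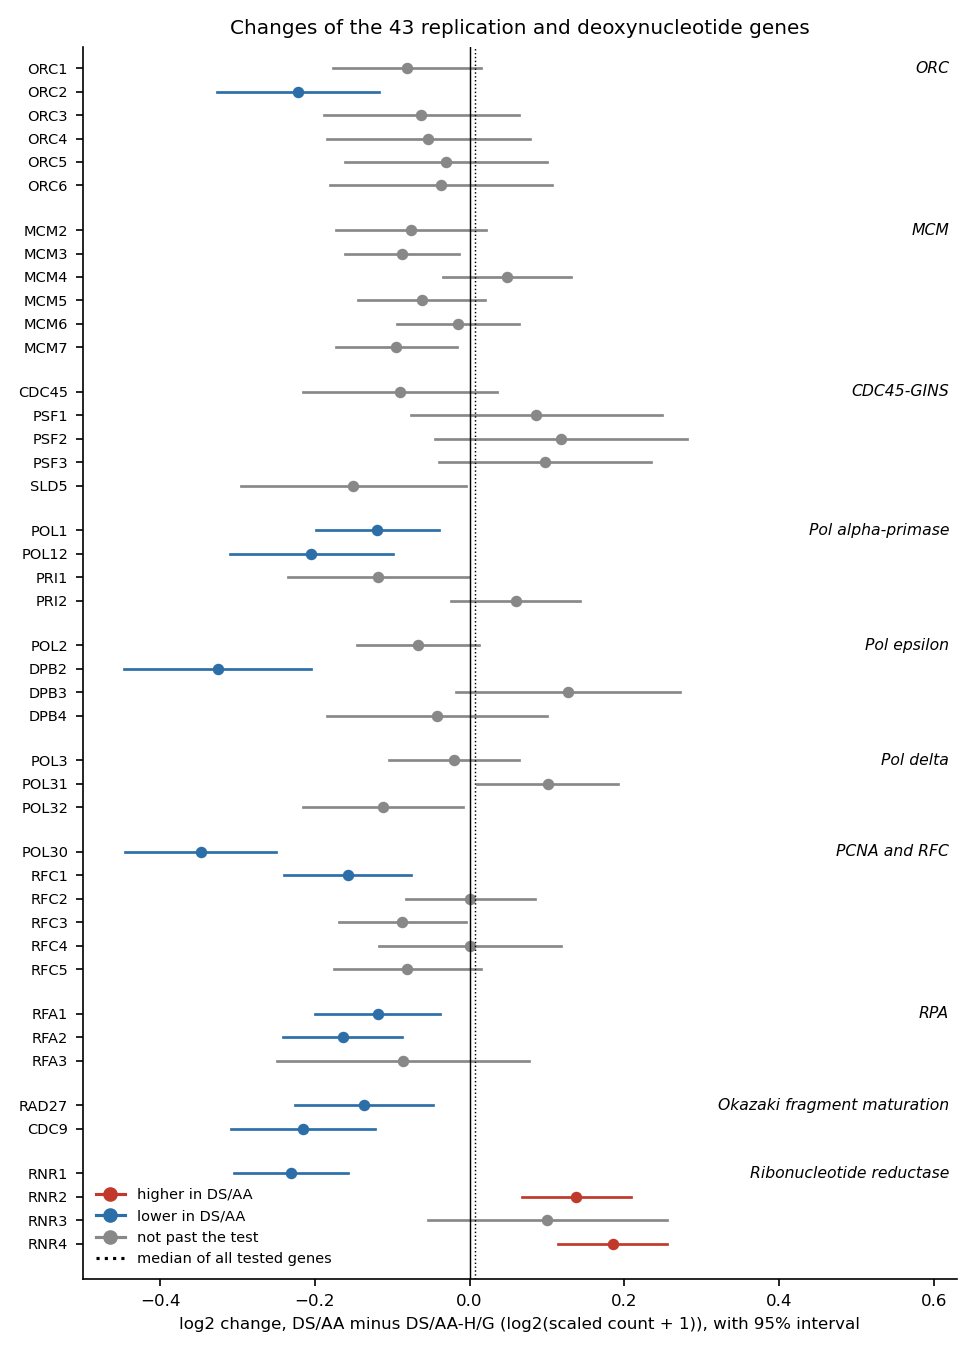
Change of each of the 43 genes between the strains (points, log2 scale, DS/AA minus DS/AA-H/G) with its 95% interval (lines), ordered by complex; red and blue mark genes past the test and grey those that did not pass. POL30 and DPB2 lie farthest to the left at -0.35 and -0.33, and the 2 red genes are RNR2 and RNR4.

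For the 30 genes that did not pass, the 95% intervals at the deposited scaling ran at most from -0.30 (SLD5) to 0.28 (PSF2). A difference beyond 0.815-fold or 1.22-fold thus lay outside the interval of each at that scaling. For these 30 genes, counting error in the library with the fewest reads was 1.27% (POL2) to 4.68% (PSF1) of a value. That is the error of a single value, and its share in the width of the intervals was not computed. Of the 13 calls, 10 held under each of 14 alternative settings, of which 6 left out 1 library and 8 changed the filter, pseudocount, scaling or variance model. The other scalings were quantile normalization, which gives all libraries the same distribution, and equal column totals, with and without CIT1. They moved the split of the members to 20 lower and 2 higher with quantile normalization, and to 8 lower and 6 higher with equal column totals. The intervals above leave out the choice of scaling, and under quantile normalization SLD5 stood at -0.36, beyond its interval. The calls that did not hold throughout were POL1, RFA1 and RAD27, which are marked below. The authors' deposited table gave q under 0.05 to the same 13 members, in the same directions, where 41.5% of its rows had such a q.

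The MCB, spelled ACGCGT and identical on both strands, was searched in the 300 bases before the start codon of each gene. It was present in 17 of 43 members (39.5%), against 3.55% of the 5773 genes with such a window. More than 1 site was present in 6 members (14.0%), against 0.381% of all windows. The motif of the related factor SBF, spelled CACGAAA and searched on both strands, was in 6 members (14.0%), against 4.62% of all windows. The windows below are from RefSeq's R64 genome and show the stretch around the site or sites, with the MCB in capitals. The first 5 belong to members that fell in every alternative, and the last 3 are a choice from the 9 members with a site that did not pass. These 3 have 1 site each. CDC45, which also did not pass and is not shown, has 2 sites. POL30 (chrII:425936-425981, minus strand, site 195 bases before the start codon), POL12 (chrII:153784-153852, minus, 222 and 199), DPB2 (chrXVI:888820-888865, plus, 134), CDC9 (chrIV:167354-167399, minus, 125), RFA2 (chrXIV:48147-48204, plus, 120 and 108), POL3 (chrIV:276686-276731, plus, 166), PRI2 (chrXI:353308-353353, plus, 165) and RFC4 (chrXV:142666-142711, minus, 136) read as follows.
POL30: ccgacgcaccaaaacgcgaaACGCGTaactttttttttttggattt
POL12: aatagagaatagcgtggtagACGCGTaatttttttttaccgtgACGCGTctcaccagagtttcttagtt
DPB2: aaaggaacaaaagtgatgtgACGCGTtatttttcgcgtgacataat
CDC9: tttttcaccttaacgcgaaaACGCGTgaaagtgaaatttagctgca
RFA2: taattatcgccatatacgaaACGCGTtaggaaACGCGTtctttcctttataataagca
POL3: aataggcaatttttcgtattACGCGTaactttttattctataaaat
PRI2: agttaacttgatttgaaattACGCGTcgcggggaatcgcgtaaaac
RFC4: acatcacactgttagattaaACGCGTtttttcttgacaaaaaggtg

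Of the 17 members with an MCB in this window, 8 fell, 0 rose and 9 did not pass (median change -0.11). Of the 26 without one, 3 fell (ORC2, RFC1 and RNR1), 2 rose (RNR2 and RNR4) and 21 did not pass (median -0.06). Among 188 other tested genes with the motif, 39 fell and 33 rose, with a median of -0.03. Of all tested genes, 19.7% fell and 22.1% rose. These counts are a description, the search having been chosen after the values were seen, and a match is not evidence that a factor binds.

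Among the genes that act at origins, ORC2 fell and no other ORC gene passed the test. ORC2, a core subunit that binds origin DNA together with its partners (YBR060C, chromosome II, 360652 to 362514), stood at 2496, 2222 and 2293 scaled counts in DS/AA libraries, against 2690, 2797 and 2684 in DS/AA-H/G libraries. The 3 values of DS/AA all lay below those of DS/AA-H/G, and the change was -0.22 ± 0.05 (SE, limma adjusted p = 0.00296). ORC1, the ATPase subunit that binds ATP during loading, averaged 3089 ± 158 in DS/AA, against 3264 ± 65.3 in DS/AA-H/G (mean ± SD, n = 3 each), with a change of -0.08. It was called without DS/AA replicate 3 and under quantile normalization (adjusted p = 0.0386 and 0.0397). ORC3, ORC4, ORC5 and ORC6 changed by -0.06 to -0.03, and their groups overlapped.

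None of the 6 MCM genes passed. MCM7, one of the subunits of the helicase ring (YBR202W), changed most, with 5004, 4785 and 4993 scaled counts in DS/AA, against 5292, 5313 and 5174 in DS/AA-H/G. The groups did not overlap, yet the difference missed the threshold (change -0.09 ± 0.04, limma adjusted p = 0.0508). It was called without DS/AA replicate 1, under quantile normalization, and when genes under 10 scaled counts were left out (adjusted p = 0.0478, 0.0406 and 0.0468). MCM3, another ring subunit gene, stood at 5942 ± 83.3 in DS/AA, against 6314 ± 110 in DS/AA-H/G (mean ± SD, n = 3 each), at a change of -0.09 and an adjusted p of 0.0573. MCM4 was the only subunit gene with a positive change (0.05), and it was called only with equal column totals (adjusted p = 0.0479). MCM2, MCM5 and MCM6 changed by -0.08, -0.06 and -0.02, with overlapping groups, and were called under no alternative.

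The 5 genes of CDC45 and GINS, the cofactors that activate the helicase, also did not pass. SLD5, a GINS subunit (YDR489W), had the largest change of these at -0.15 ± 0.07. It stood at 525, 506 and 502 scaled counts in DS/AA, against 573, 581 and 547 in DS/AA-H/G. The groups did not overlap (limma adjusted p = 0.0909), and SLD5 was called under quantile normalization, at -0.36, and by limma without trend or robust moderation (adjusted p = 0.00154 and 0.029). The other GINS genes PSF1, PSF2 and PSF3 had positive changes of 0.09 to 0.12 as deposited, which turned negative under quantile normalization (-0.14 to -0.06), called in neither. CDC45 averaged 1331 ± 103 in DS/AA, against 1414 ± 26.4 in DS/AA-H/G (mean ± SD, n = 3 each), and its groups overlapped; it was called without DS/AA replicate 3 and under quantile normalization (adjusted p = 0.0342 and 0.0449).

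In polymerase alpha-primase, both polymerase subunit genes fell, and neither primase gene passed. POL12, the regulatory B subunit (YBL035C, chromosome II, 151493 to 153610), stood at 1843, 1747 and 1963 scaled counts in DS/AA, against 2122, 2105 and 2164 in DS/AA-H/G. The highest DS/AA library lay below the lowest of DS/AA-H/G, at a change of -0.20 ± 0.05 (limma adjusted p = 0.00502). POL1, the catalytic subunit, averaged 5158 ± 147 in DS/AA, against 5601 ± 103 in DS/AA-H/G (mean ± SD, n = 3 each), a change of -0.12 with an adjusted p of 0.0202. The POL1 call was lost with equal column totals (-0.06, adjusted p = 0.184), with equal totals leaving out CIT1 (0.0582), and without DS/AA replicate 1, DS/AA replicate 2 or DS/AA-H/G replicate 5 (0.0501, 0.0514 and 0.103). The primase genes PRI1 and PRI2 changed by -0.12 and 0.06; PRI1 was called under quantile normalization and PRI2 with equal column totals (adjusted p = 0.0158 and 0.0299).

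The leading-strand polymerase epsilon differed in 1 of its 4 genes. DPB2, its essential second subunit, which also ties the polymerase to the helicase (YPR175W, chromosome XVI, 888974 to 891043), had 1267, 1270 and 1389 scaled counts in DS/AA, against 1544, 1696 and 1680 in DS/AA-H/G. The groups did not overlap, at a change of -0.33 ± 0.06 (limma adjusted p = 0.000543), and the change lay between -0.40 and -0.27 over the alternatives. The catalytic subunit gene POL2 averaged 6384 ± 81.4 in DS/AA, against 6688 ± 220 in DS/AA-H/G (mean ± SD, n = 3 each; change -0.07), and the histone-fold subunit genes DPB3 and DPB4 changed by 0.13 and -0.04. DPB3 was called with equal column totals (adjusted p = 0.0425) but stood at -0.02 under quantile normalization, and it overlaps YBR277C on the opposite strand by 323 nt, a row at 0 to 6.04 scaled counts. Per kb of coding length, DPB2 stood at 0.660 ± 0.0268 of POL2 in DS/AA, against 0.791 ± 0.0607 in DS/AA-H/G (exact permutation p = 0.1, two-sided, the smallest that 3 against 3 libraries allow). This ratio is taken within a library, so its scaling factor drops out.

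Polymerase delta showed no called gene. POL32, a subunit that binds PCNA (YJR043C), changed by -0.11 ± 0.05 (limma adjusted p = 0.0796), with 1375, 1277 and 1376 scaled counts in DS/AA, against 1445, 1463 and 1442 in DS/AA-H/G. The groups did not overlap, and POL32 was called under quantile normalization (adjusted p = 0.0107). The second subunit gene POL31 had a positive change of 0.10 with an adjusted p of 0.0709. It was called with equal column totals, with equal totals leaving out CIT1 and without DS/AA replicate 2 (adjusted p = 0.00941, 0.0296 and 0.0487). The catalytic POL3 averaged 2925 ± 60.3 in DS/AA, against 2966 ± 77.2 in DS/AA-H/G (mean ± SD, n = 3 each), and the groups overlapped.

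The sliding clamp gene fell, and so did 1 of the 5 loader genes. POL30 (YBR088C, chromosome II, 424990 to 425766) stood at 3155, 3239 and 3517 scaled counts in DS/AA, against 4241, 4111 and 4248 in DS/AA-H/G. Each DS/AA library was lower than each DS/AA-H/G library, and the change of -0.35 ± 0.04 had the smallest adjusted p of all members (limma, 6.21e-05). RFC1, the large subunit of the clamp loader, fell to 4948 ± 185 in DS/AA, against 5518 ± 65.2 in DS/AA-H/G (mean ± SD, n = 3 each; change -0.16, adjusted p = 0.0056), and by 0.10 with equal column totals. The small loader subunit genes RFC2, RFC3, RFC4 and RFC5 changed by -0.09 to 0.00 and did not pass; RFC3 and RFC5 were called under quantile normalization (adjusted p = 0.0113 and 0.0271). Per kb of coding length, POL30 was 2.19 ± 0.108 times the mean of the 5 RFC genes in DS/AA, against 2.66 ± 0.0452 times in DS/AA-H/G (exact permutation p = 0.1, two-sided, the smallest possible). POL30, RFC1 and CDC9 overlap rows on the opposite strand by 584, 411 and 299 nt, but those rows held at most 12.2 scaled counts in any library.

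RPA, the complex that coats single-stranded DNA, had 2 of 3 genes lower in DS/AA. RFA2, its middle subunit (YNL312W), stood at 3028, 3097 and 3065 scaled counts in DS/AA, against 3405, 3466 and 3424 in DS/AA-H/G, groups that did not overlap (change -0.16 ± 0.04, limma adjusted p = 0.00284; -0.11 with equal column totals). The large subunit gene RFA1 averaged 3622 ± 110 in DS/AA, against 3932 ± 37.2 in DS/AA-H/G (mean ± SD, n = 3 each; change -0.12, adjusted p = 0.0225). This call was lost with equal column totals (-0.06), with equal totals leaving out CIT1, and without DS/AA replicate 2 or any 1 of the DS/AA-H/G replicates 4, 5 and 6 (adjusted p = 0.193, 0.0627, 0.0737, 0.0673, 0.0632 and 0.0561). RFA3, the small subunit gene, changed by -0.09 and was called only under quantile normalization (adjusted p = 0.0364).

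Both genes of Okazaki fragment maturation fell. CDC9, the DNA ligase that seals the fragments (YDL164C, chromosome IV, 164987 to 167254), had 2654, 2656 and 2781 scaled counts in DS/AA, against 2996, 3143 and 3258 in DS/AA-H/G. The groups were apart, at -0.22 ± 0.04 (limma adjusted p = 0.00168). RAD27, the flap endonuclease that trims displaced primers, averaged 3056 ± 102 in DS/AA, against 3358 ± 99.0 in DS/AA-H/G (mean ± SD, n = 3 each; change -0.14, adjusted p = 0.0184). The RAD27 call was lost with equal column totals (-0.08, adjusted p = 0.131) and without DS/AA replicate 3, DS/AA-H/G replicate 4 or DS/AA-H/G replicate 6 (0.065, 0.0635 and 0.0656).

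Within RNR, the main large subunit fell and both small subunits rose. RNR1 (YER070W, chromosome V, 298950 to 301616), whose protein carries the catalytic site, stood at 15069, 15067 and 15958 scaled counts in DS/AA, against 17854, 18014 and 18203 in DS/AA-H/G. The groups did not overlap, at a change of -0.23 ± 0.03 (limma adjusted p = 0.000164). RNR4, which encodes one of the paired small subunits (YGR180C, chromosome VII, 855264 to 856301), stood at 19902, 20962 and 20560 in DS/AA, against 17707, 18010 and 18305 in DS/AA-H/G. All DS/AA libraries were higher here, at 0.19 ± 0.03 (adjusted p = 0.000675). RNR2, which encodes the small subunit that holds the tyrosyl radical (YJL026W, chromosome X, 392404 to 393603), stood at 16563, 16896 and 17030 in DS/AA, against 15042, 15106 and 15748 in DS/AA-H/G. These groups were also apart, at 0.14 ± 0.03 (adjusted p = 0.00495). All 3 calls and their directions held under each of the 14 alternatives.

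RNR3 encodes the minor large subunit, known to be induced strongly by DNA damage and replication stress. It had 552, 566 and 527 scaled counts in DS/AA, against 484, 531 and 521 in DS/AA-H/G, with overlapping groups and a change of 0.10 ± 0.07 (limma adjusted p = 0.28). HUG1, a small RNR inhibitor gene that damage also induces, stood at 3.76 to 10.2 scaled counts in DS/AA, against 3.92 to 10.2 in DS/AA-H/G. Its lowest library held 4 reads, with a counting error of 50%. The 95% interval of its change ran from -0.88 to 1.21, too wide to tell whether HUG1 changed. RNR1 and RNR3 are paralogs that share 2293 nt at 79.0% identity, below the 95% taken here as a limit for shared reads. Per kb, RNR1 was 27.5 ± 1.90 times RNR3 in DS/AA, against 34.5 ± 1.48 times in DS/AA-H/G.

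The balance of RNR subunit transcripts was also measured within each library, where the scaling factor drops out. The summed small subunit level per kb (RNR2 and RNR4) over the summed large subunit level per kb (RNR1 and RNR3) was 5.63, 5.84 and 5.50 in DS/AA libraries, against 4.30, 4.30 and 4.38 in DS/AA-H/G libraries. The lowest DS/AA ratio exceeded the highest DS/AA-H/G ratio, a log2 difference of 0.39 (exact permutation p = 0.1, two-sided, the smallest possible). This order follows from the values already given and is no separate support. RNR2 and RNR4 were higher and RNR1 lower in every DS/AA library, and RNR3 is a small part of the large subunit sum. RNR2 stood at 0.711 ± 0.0122 of RNR4 per kb in DS/AA, against 0.735 ± 0.00932 in DS/AA-H/G (mean ± SD, n = 3 each; exact permutation p = 0.1, two-sided). The 6 ratios computed were chosen after the values were seen. The remaining one, POL12 over POL1, was 0.746 ± 0.0272 in DS/AA, against 0.792 ± 0.0252 in DS/AA-H/G (exact permutation p = 0.2).

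**Figure D2:**
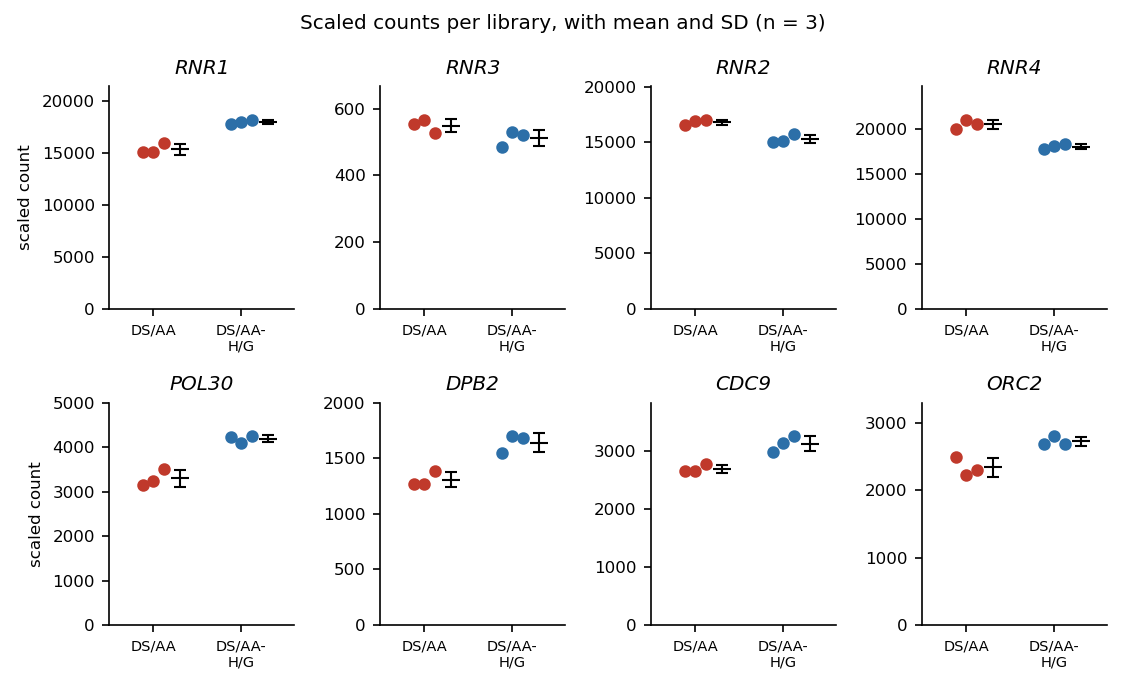
Scaled counts in each library for the 4 RNR genes and 4 further members (points), with the mean and SD of the 3 libraries of a group beside them; each axis starts at 0. DS/AA points lie below DS/AA-H/G points for RNR1, POL30, DPB2, CDC9 and ORC2, and above them for RNR2 and RNR4. For RNR3 the DS/AA points lie mostly above, and the groups overlap.

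Levels per kb of coding length spread most in RNR, where RNR4 was 91.3 times RNR3, and next in PCNA and RFC, where POL30 was 4.12 times RFC4 (means over the 6 libraries). In DS/AA, RNR4 stood at 19725 ± 515 scaled counts per kb, RNR2 at 14025 ± 200, RNR1 at 5761 ± 193 and RNR3 at 210 ± 7.51; in DS/AA-H/G, RNR4 stood at 17348 ± 288, RNR2 at 12749 ± 325, RNR1 at 6758 ± 65.7 and RNR3 at 196 ± 9.51 (mean ± SD, n = 3 each). POL30 followed at 4252 ± 244 in DS/AA, against 5405 ± 99.3 in DS/AA-H/G. Within each of the other complexes, the highest gene was 1.71 to 2.17 times the lowest. In the MCM ring, which holds equal copies of its subunits, MCM3 was 2.16 times MCM2.

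**Figure D3:**
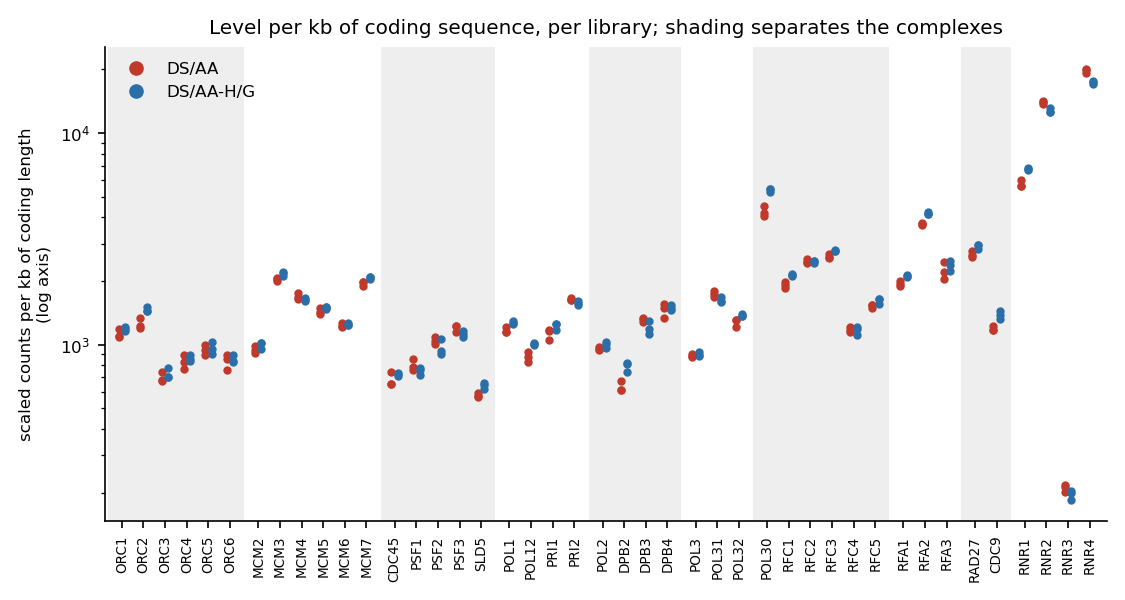
Scaled counts per kb of coding length in each library (points, log axis) for the 43 genes, with DS/AA to the left of DS/AA-H/G for each gene and shading to separate the complexes. RNR1, RNR2 and RNR4 lie above the other genes and RNR3 lies below them in both strains.

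Among further replication genes, the changes that passed were also small. The share called was 30% to 40% in each list named here, against 41.8% of all tested genes. Of 10 licensing and firing factors 3 fell: CDC6, which helps load MCM (745 ± 70.5 in DS/AA, against 922 ± 28.1 in DS/AA-H/G, mean ± SD, n = 3 each; change -0.31, limma adjusted p = 0.00429), SLD3 (-0.16), which recruits CDC45, and MCM10 (-0.15). CDC6 overlaps YJL195C on the opposite strand by 605 nt. Of 6 fork protection and topoisomerase genes 2 fell, TOP1 (-0.11) and the helicase gene RRM3 (-0.13). Of 5 genes of alternative clamp loaders 2 fell, ELG1 (-0.18), which unloads PCNA, and CTF18 (-0.15). In primer removal the nuclease-helicase gene DNA2 rose (0.14) and the helicase gene PIF1 fell (-0.12), of 5 genes. The SLD3, MCM10, TOP1, RRM3, ELG1, CTF18 and PIF1 calls were lost with equal column totals (adjusted p = 0.0592 to 0.258), those of MCM10, TOP1, RRM3 and PIF1 also with equal totals leaving out CIT1 (0.0629 to 0.0828), those of TOP1 and RRM3 also by limma without trend or robust moderation (0.0551 and 0.0618), and the DNA2 call under quantile normalization (0.0882). Leaving out 1 library also ended calls: SLD3 without DS/AA replicate 2 or DS/AA-H/G replicate 4 or 5, MCM10 without DS/AA replicate 1 or 2 or DS/AA-H/G replicate 5 or 6, TOP1 without any library but DS/AA replicate 3, RRM3 without DS/AA replicate 2 or any DS/AA-H/G replicate, PIF1 without DS/AA-H/G replicate 4 or 5, and DNA2 without DS/AA replicate 3 or DS/AA-H/G replicate 6 (adjusted p = 0.051 to 0.131).

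Genes around deoxynucleotide supply were mixed. The share called was 16.7% of other deoxynucleotide enzymes and 30% of RNR inhibitors, regulators and checkpoint kinases, against 41.8% of all tested genes. Of 6 other deoxynucleotide enzymes DFR1, which encodes dihydrofolate reductase, rose (0.14, limma adjusted p = 0.0466), but not under quantile normalization (0.31), by limma without trend or robust moderation (0.0829), nor without DS/AA replicate 1 or 3 or DS/AA-H/G replicate 5 or 6 (0.103 to 0.192), and thymidylate synthase CDC21 stood at 2184 ± 153 in DS/AA, against 2254 ± 17.6 in DS/AA-H/G (mean ± SD, n = 3 each). Of 10 RNR inhibitors, regulators and checkpoint kinases, 2 rose and 1 fell. SML1, the protein that inhibits Rnr1, averaged 4519 ± 72.3 in DS/AA, against 4947 ± 190 in DS/AA-H/G (-0.13, adjusted p = 0.0176), though not with equal column totals (0.14) or without DS/AA-H/G replicate 5 (0.109). DIF1, which carries the small subunits into the nucleus, averaged 695 ± 42.5 in DS/AA, against 585 ± 17.6 in DS/AA-H/G (0.25, adjusted p = 0.0116), though not under quantile normalization (0.387) or without DS/AA replicate 2 (0.0508). The checkpoint kinase gene MEC1 rose by 0.17, while RAD53, DUN1 and the RNR repressor gene RFX1 changed by -0.03 to 0.06 and did not pass.

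Most markers of cell cycle stages fell, where 19.7% of all tested genes did. Their list medians lay farther from 0 than the median of the replication genes, and the difference was not tested. All 8 S phase histone genes fell (median -0.25), among them HTB2 (-0.35), HTA1 (-0.33) and HHF2 (-0.36), the last of which is uncertain, as 312 nt of it match HHF1 at 97.4% identity. The changes stayed negative in each of the 14 alternatives, but the number of histone genes called lower was 4 with equal column totals, 5 under quantile normalization, 5 by limma without trend or robust moderation, 6 with equal totals leaving out CIT1 and 5 to 7 with 1 library left out (5 without DS/AA-H/G replicate 4). The calls lost were those of HTB1 (-0.12, limma adjusted p = 0.0451; lost in 9 of 14 alternatives), HHT1 (lost in 5), HHF1 (lost in 5) and HHT2 (lost in 2). Of 6 G1 markers 5 fell (median -0.25), with the G1 cyclin genes CLN2 and CLN1 at -0.44 and -0.24 and the S phase cyclin gene CLB5 at -0.24. Of 6 mitotic markers 5 fell (median -0.22), with the cyclin gene CLB2 at -0.33, CDC20 at -0.33 and BUD4 at -0.20. The G1 cyclin gene PCL1 was lost by limma without trend or robust moderation (adjusted p = 0.063), and the mitotic regulator gene SWI5 there, with equal column totals and without DS/AA-H/G replicate 5 or 6 (adjusted p = 0.0657 to 0.0771). Of 8 daughter and early G1 markers 7 fell (median -0.72), among them DSE2 (-0.79), SCW11 (-0.98) and EGT2 (-0.64), and PIR1 did not pass (0.04).

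Their summed levels did not overlap between the strains. Among all tested genes, taken singly, the groups did not overlap in 52.7%. The histone genes summed to 70527 to 74437 scaled counts in DS/AA, against 83300 to 86832 in DS/AA-H/G. The G1 markers summed to 12727 to 13976 in DS/AA, against 16450 to 17106 in DS/AA-H/G. The mitotic markers summed to 23944 to 24936 in DS/AA, against 27604 to 28704 in DS/AA-H/G. The daughter markers summed to 102262 to 102981 in DS/AA, against 155078 to 168295 in DS/AA-H/G. No marker in these lists was at 0 in every library. In bulk RNA, fewer cells in a stage and less RNA per cell cannot be told apart, and the part of cell cycle stage in the replication gene changes was not tested.

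Of 8 factors that control G1 to S transcription, 1 rose and 3 fell (50% called, against 41.8% of all tested genes). NRM1, which encodes a repressor of MBF and is itself an MBF target, fell to 772 ± 44.1 in DS/AA, against 1053 ± 57.6 in DS/AA-H/G (mean ± SD, n = 3 each; -0.45, limma adjusted p = 0.000132). XBP1, a repressor gene known to be induced by stress and in quiescence, rose to 2319 ± 87.5 in DS/AA, against 1406 ± 61.5 in DS/AA-H/G (0.72, adjusted p = 2.56e-07). YOX1, a repressor of early cell cycle genes, fell by 0.21, although not by limma without trend or robust moderation (adjusted p = 0.0615). The MBF subunit genes MBP1 and SWI6 changed by -0.03 and -0.11, of which SWI6 passed (adjusted p = 0.0368; lost in 7 of 14 alternatives, among them without DS/AA replicate 2 or any DS/AA-H/G replicate, at 0.0539 to 0.287), and the SBF subunit gene SWI4 did not change beyond its spread (0.00).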

How the data were processed

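Per the labels, an RNeasy kit gave the RNA and a strand-marking NEBNext Ultra II Directional kit the libraries. The tools named in the submitters' processing notes are Salmon 1.2.1, cutadapt 1.18, bcl2fastq 2 and R 3.5.1, with build R64. Their settings, also for strand, are not stated in these sources. The deposited values are a signal: estimated counts that the authors divided by 1 factor per library, as read from the values (93.3% to 96.4% of values under 10 steps, but 36.5% to 44.0% of all, were whole multiples of a step within 0.01). They are not whole reads, so no count model was used. Besides these, the authors deposited per gene a log2 ratio, a p-value with its q-value, a rank score and a mark for q under 0.05, by a test that no source used here names.

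Here, limma 3.58.1 (R 4.3.3) tested log2(value + 1) for genes that reached 1 in 3 or more samples (trend, robust moderation, Benjamini-Hochberg), checked on simulated data. The simulated libraries had no scaling difference, so that check does not cover the choice of scaling. The pseudocount understates changes of low genes. Replicates differed by more than counting error (mean chi-square per gene of 4.29 to 19.7 within groups and 196 to 230 between them), so none was a copy of the values of another. This cannot tell separate cultures from repeated preparations of 1 culture. Groups and replicate numbers came from titles. All 43 members matched RefSeq's R64 table in start and end. Sequence sharing was searched with BLAST+ 2.17.0, with a limit of 100 nt at 95% identity. Named were all members, with values per library for the RNR genes, called members with a change of at least 0.3 and the largest change in each complex. Up to 3 called genes with the smallest p were named from each related list. MCM3, HUG1, CDC21 and others outside this rule were named after their values were seen. Members and lists were chosen with earlier results of these data known.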

Additional observations from a re-analysis of the deposited data

How the results depend on the processing

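The calls are small changes and move with the scaling. As deposited, 11 members fell and 2 rose. Under quantile normalization 20 fell and the median member change was -0.13, and with equal column totals 6 rose, 8 fell and the median was -0.021; 28.7% of all genes fell in the first and 29.8% rose in the second. The median of all genes moved with it, to -0.06 and 0.06, and the share of calls that were higher was 36.8% (of 2812) and 71.1% (of 2586), against 52.8% (of 2590) as deposited. Equal totals leaving out CIT1 gave 3 higher and 9 lower members. Another pseudocount, filter or variance model gave 11 to 12 lower and 2 higher members. Leaving out 1 library gave 9 to 12 lower and 2 to 3 higher members, 2009 to 2578 genes called and a median of -0.09 to -0.06. Of the 30 members that were not called, 13 were called under at least 1 alternative and 17 under none, and no called member changed sign. Of the related lists outside mating type, 42 genes were called as deposited, 50 under quantile normalization, 32 with equal column totals, 32 by limma without trend or robust moderation and 31 to 41 with 1 library left out. No paired analysis was possible because the groups share no replicate number. Counting error came to at most 4.68% of a member's value, and 3 libraries a group limit the precision.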
